A study of Mus musculus with 2 samples.

Results

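Scavenger receptors are surface and secreted proteins through which macrophages bind and take up modified lipoproteins, dying cells, microbes and the debris of red blood cells. The 9 genes described here are Marco, Msr1, Cd36, Cd163, Mrc1, Scarb1, Stab1, Cd5l and Lrp1, chosen by symbol from the 26124 genes in the count matrices, and each symbol matched exactly 1 gene. The question was whether a low level of Marco in 1 of the libraries was shared by the other receptors, and in which cells.

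The family is held together by what its members bind, not by descent. Marco and Msr1 are collagen-like class A receptors, Cd36 and Scarb1 are class B receptors for lipoproteins and fatty acids, and Cd163 takes up hemoglobin bound to haptoglobin. Cd5l is a secreted relative of Cd163 with the same cysteine-rich domains, Mrc1 is the mannose receptor, Stab1 clears altered self ligands, and Lrp1 is the large receptor that takes up heme bound to hemopexin. In the spleen, red pulp macrophages engulf aged red blood cells and recycle their iron, and macrophages of erythroblastic islands surround and feed maturing erythroid cells. Marco is best known there as a marker of macrophages of the marginal zone.

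Single-cell RNA sequencing was performed on spleen cells enriched with anti-F4/80 antibody-coated magnetic beads, 1 mouse per library. By their labels, both mice lacked the mouse α-globin genes and carried a human transgene that includes sickle β-globin, Tg(HBA-HBBs)41Paz. The mouse labelled SCD, for sickle cell disease, was given as homozygous for the mouse β-globin deletion and for the transgene (Hba-/-, Hbb-/-, Tg/Tg). The mouse labelled wild-type was given as a non-sickling control, heterozygous for the deletion and hemizygous for the transgene (Hba-/-, Hbb+/-, Tg/0), so that neither label is a wild-type globin genotype. The mice of the study were 12 to 16 weeks old, and 1 mouse cannot stand for a genotype.

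Levels are given as CPM, the UMIs (tagged molecules) of a gene scaled to a total of 1000000, each with a 95% exact Poisson interval. The mouse globin genes went against the labels. Among erythroid-like cells, the wild-type label went with 159 (154 to 165) CPM of Hbb-bs and 261 CPM of Hbb-bt, and the SCD label with 56236 (56037 to 56435) and 12000 CPM. The library whose mouse should have lacked these genes thus held most of their transcripts. The α-globin Hba-a1, which by the labels neither mouse had, reached 31671 and 22020 CPM in these erythroid-like cells. The samples are therefore called the wild-type-labelled and the SCD-labelled library, and a direction given below is a direction between labels: were the labels of the files exchanged, every direction would turn, and the counts used here do not settle whether they were. The libraries held 145953464 and 73986356 UMIs in 24144 and 15442 barcodes, of which 19418 and 12279 passed the filters with a median of 4115.5 and 4571 UMIs. The libraries had 107 barcodes in common, 65 of them among kept cells. The ratios, counts and shares of whole classes and of all kept cells, computed again without them, moved by less than the counting error.

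Cells were grouped by 25 clusters made without the 9 genes. RPM-like cells had the markers of red pulp macrophages, and EBI-like cells, named for erythroblastic islands, had these together with erythroid markers. There were 4737 and 1580 RPM-like cells and 5077 and 813 EBI-like cells in the wild-type-labelled and the SCD-labelled library. All 10 red pulp markers were found in RPM-like cells of both libraries, with summed levels of 27205 and 28715 CPM. Of the 5 marginal zone markers 4 were found, with summed levels of 679 and 877 CPM. Nr1h3 was at 418 and 556 CPM, Pla2g2d at 197 and 287 CPM and Siglec1 at 63.9 and 31.3 CPM. The main B lymphocyte-like cluster held Nr1h3 at 69.4 and 57.9 CPM, Pla2g2d at 21.4 and 38.7 CPM and Siglec1 at 3.81 and 1.18 CPM. Cd209b was at 0.468 and 3.16 CPM and Cd209d had no UMI in RPM-like cells of either library. These C-type lectins of marginal zone macrophages were thus at or near 0 beside the level of Marco. Nr1h3, Pla2g2d and Siglec1 stood above the B lymphocyte-like cluster. Whether marginal zone macrophages were among the RPM-like cells was not tested. Each class was held by different clusters in the libraries. RPM-like cells of the wild-type-labelled library lay in clusters 1 and 10, with 1073 and 3630 cells, and those of the SCD-labelled library in cluster 23, with 1548 cells. EBI-like cells of the former lay in clusters 5, 6, 8 and 12 and those of the latter mostly in cluster 24, with 641 cells.

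With 1 mouse per label no test between the libraries was possible. Ratios are log2 ratios of CPM, the SCD-labelled over the wild-type-labelled library, with 95% exact intervals that cover counting error only. A gene was counted as lower when the ratio was -1 or less and as higher when it was 1 or more.

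In RPM-like cells, 4 of the 9 genes were lower in the SCD-labelled library: Marco, Cd36, Cd5l and Msr1. None of the 9 was higher by the same rule. Among the 9979 genes that reached 100 UMIs, 4.37% were lower and 9.11% were higher, and the median ratio over them was 0.20, against which the ratios below can be read. The median ratio was -0.37 over the 9 receptors and -0.31 over the 8 without Marco, so 3 other receptors passed the limit along with Marco and 5 did not. With a filter of 200 genes per cell the medians were -0.77 and -0.53. Scavenger receptors with ratios near 0 (Mrc1, Lrp1) and above 0 (Scarb1, Cd163) were measured in the same cells.

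**Figure D1:**
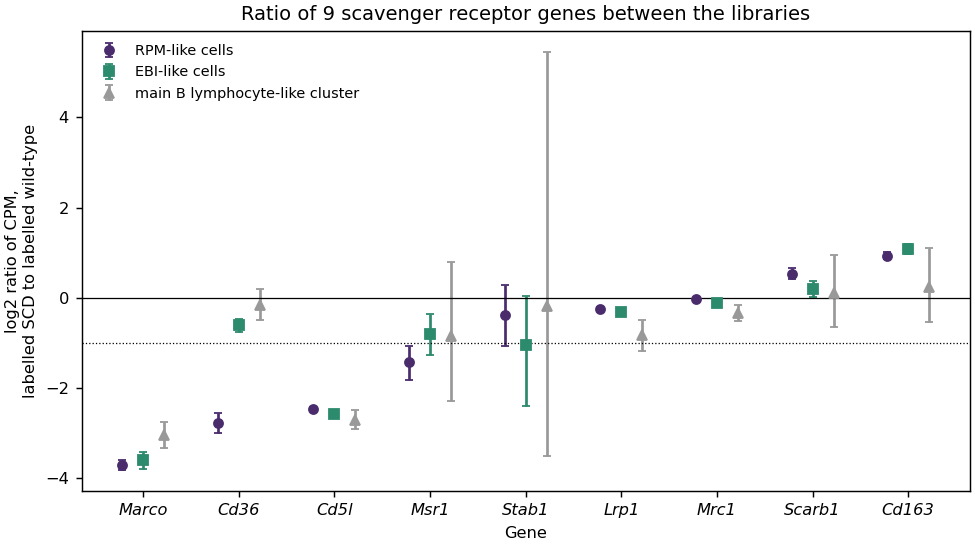
Log2 ratio of CPM between the SCD-labelled and the wild-type-labelled library (vertical axis) for the 9 genes (horizontal axis) in RPM-like cells, EBI-like cells and the main B lymphocyte-like cluster, which serves as the reference for free RNA. Points are ratios of summed UMIs, bars are 95% exact intervals for counting error, and the dotted line marks -1. Marco and Cd5l lie far below the line in all 3 groups of cells, Cd36 in RPM-like cells but not in the other groups, and Cd163 lies near 1 in both macrophage classes.

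Among the class A receptors, Marco (ENSMUSG00000026390, chromosome 1, 120474538 to 120505024, minus strand, GRCm38) had the lowest ratio of the 9, as the libraries are labelled, in RPM-like cells. It was at 1222.5 CPM (20875 UMIs) in the wild-type-labelled and at 93.7 (86.8 to 101) CPM (682 UMIs) in the SCD-labelled library, a log2 ratio of -3.71 (-3.82 to -3.59). In EBI-like cells Marco was at 831 (820 to 841) and 68.4 (60.2 to 77.4) CPM (log2 ratio -3.60, interval -3.79 to -3.42). The level was thus lower in both macrophage classes, and by nearly the same factor.

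Msr1 (ENSMUSG00000025044, chromosome 8, 39581685 to 39642673, minus strand), the other class A receptor and the best-studied receptor for acetylated lipoproteins, was rare in RPM-like cells, at 26.4 (24.0 to 28.9) and 9.76 (7.62 to 12.3) CPM from 450 and 71 UMIs. Its log2 ratio there was -1.43 (-1.82 to -1.07). This call depended on how the cells were grouped. The ratio was -0.26 at Leiden resolution 2, -0.51 with a gate on Vcam1 and Spic in place of clusters, and 0.11 with each library clustered on its own. In EBI-like cells the log2 ratio of Msr1 was -0.80 (-1.27 to -0.37), short of the limit.

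Cd36 (ENSMUSG00000002944, chromosome 5, 17781690 to 17888801, minus strand) differed between the 2 macrophage classes. In RPM-like cells it was at 170 (164 to 176) CPM in the wild-type-labelled and 24.9 (21.4 to 28.8) CPM in the SCD-labelled library, a log2 ratio of -2.77 (-3.00 to -2.56). In EBI-like cells it was at 187 (182 to 192) and 122 (111 to 134) CPM (log2 ratio -0.61, interval -0.76 to -0.47). The intervals of the ratios do not overlap between the classes, and erythroid-like cells, which carried Cd36 at 141 (136 to 147) and 212 (200 to 224) CPM, showed a ratio of the opposite sign, 0.58. Within the EBI-like clusters 5, 6, 8 and 12 the ratio of Cd36 was above 0. It was 0.32 (0.02 to 0.61), 0.29 (-0.15 to 0.70), 0.68 (-0.04 to 1.32) and 1.35 (0.74 to 1.91), with 25 to 84 cells of the SCD-labelled library. Of the 6 macrophage clusters with a ratio of Cd36, 2 had it below 0. The summed level of the 9 erythroid markers in RPM-like cells moved the same way as Cd36, from 539 CPM in the wild-type-labelled to 107 CPM in the SCD-labelled library, close to the 487 and 84.8 CPM that B lymphocyte-like cells of the main cluster held, and its part in the ratio of Cd36 was not tested. Other ways of processing gave ratios of Cd36 from -2.97, centred on the median gene, to -1.24, with the gate on Vcam1 and Spic.

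Scarb1 (ENSMUSG00000037936, chromosome 5, 125277087 to 125341094, minus strand), the receptor for high-density lipoprotein, was higher in the SCD-labelled library but by less than double. Its levels in RPM-like cells were 91.0 (86.5 to 95.6) and 132 (123 to 140) CPM (log2 ratio 0.53, interval 0.42 to 0.65). In EBI-like cells the log2 ratio was 0.19 (0.01 to 0.37). Pdzk1, the adaptor that holds the Scarb1 protein at the surface of liver cells, was at 73.3 CPM (1251 UMIs) and 0.550 CPM (4 UMIs) in RPM-like cells, a log2 ratio of -7.06 (-8.94 to -5.70), so the receptor and its adaptor transcript went in opposite directions.

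The pair with cysteine-rich domains split as well. Cd5l (ENSMUSG00000015854, chromosome 3, 87357881 to 87371073, plus strand), a secreted macrophage protein that lowers lipid storage and supports the survival of macrophages, was at 3095 (3068 to 3121) and 557 (540 to 575) CPM in RPM-like cells, a log2 ratio of -2.47 (-2.52 to -2.43). In EBI-like cells it was at 2294 (2277 to 2311) and 382 (362 to 403) CPM (log2 ratio -2.59, interval -2.66 to -2.51). Cd163 (ENSMUSG00000008845, chromosome 6, 124304656 to 124330527, plus strand), the hemoglobin scavenger receptor, was at 147 (142 to 153) and 282 (270 to 294) CPM in RPM-like cells, a log2 ratio of 0.94 (0.85 to 1.02). Its log2 ratio in EBI-like cells was 1.08 (0.97 to 1.20), from 95.6 (92.1 to 99.1) to 203 (188 to 218) CPM, and it lay between 0.38 and 1.20 over other ways of processing, under some of which it was short of the limit. The gene for a secreted scavenger was thus lower in the SCD-labelled library in both classes of macrophages. In the same 2 classes the gene for hemoglobin uptake had ratios above 0, which reached the limit of 1 in EBI-like cells only.

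Mrc1 and Lrp1 were nearly level between the libraries when UMIs were summed over each macrophage class, though not within every macrophage cluster. Mrc1 (ENSMUSG00000026712, chromosome 2, 14229392 to 14332057, plus strand) was at 2130.5 CPM in RPM-like cells of the wild-type-labelled and 2089 (2056 to 2122) CPM in those of the SCD-labelled library, a log2 ratio of -0.03 (-0.06 to 0.00), and the ratio in EBI-like cells was -0.12 (-0.16 to -0.08). Lrp1 (ENSMUSG00000040249, chromosome 10, 127538161 to 127621148, minus strand) was at 654 (642 to 667) and 549 (532 to 567) CPM in RPM-like cells, a log2 ratio of -0.25 (-0.30 to -0.20), and the ratio in EBI-like cells was -0.32 (-0.40 to -0.24).

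Stab1 (ENSMUSG00000042286, chromosome 14, 31139013 to 31168641, minus strand) was close to the limit of detection, with 79 and 26 UMIs in all RPM-like cells. Its levels were 4.63 (3.66 to 5.77) and 3.57 (2.33 to 5.24) CPM, and the log2 ratio of -0.37 (-1.07 to 0.28) included 0, so that no difference was detectable at this depth. Stab1 and Mrc1 are also made by the sinusoidal endothelium. Of 6 endothelial markers, 6 and 3 were found in RPM-like cells, with summed levels of 1.76 and 1.24 CPM and with Tek at 0 in the SCD-labelled library. These sums were near 0 beside the level of Mrc1 but not beside that of Stab1. Whether endothelial RNA had a part in the level of Stab1 was not tested.

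In EBI-like cells, 3 of the 9 genes were lower (Marco, Cd5l and Stab1) and 1 was higher (Cd163), where 6.88% of the 10556 genes tested there were lower and 4.40% were higher. The ratio of Stab1, -1.05 (-2.39 to 0.04), came from 120 and 7 UMIs and its interval included 0. Over all kept cells, again Marco, Cd5l and Stab1 were lower, 3 of 9, and none was higher, beside 9.78% and 12.0% of all 13015 genes. The log2 ratio of Marco over all kept cells was -4.06 (-4.12 to -4.01). These ratios also carry the different make-up of the libraries, since RPM-like and EBI-like cells together were a smaller part of the SCD-labelled library.

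The promoters of the 3 genes with the lowest ratios in RPM-like cells are printed here because these members were low together. Reference promoters (RefSeq, GRCm38.p6, 250 bases before to 50 bases after the start of the gene) matched 7 of the 9 members. Msr1 and Scarb1 had none. For Cd36 the RefSeq start lies inside the gene as annotated above, downstream of its outermost start, and the window belongs to that start alone. The letters GAGGAA, the core bound by PU.1 and other ETS factors of macrophages, and TGCTGA, a core element of MAF factors, were searched on both strands without overlap between them, and capitals mark the matches.
Marco, chr1:120504975-120505274, minus strand: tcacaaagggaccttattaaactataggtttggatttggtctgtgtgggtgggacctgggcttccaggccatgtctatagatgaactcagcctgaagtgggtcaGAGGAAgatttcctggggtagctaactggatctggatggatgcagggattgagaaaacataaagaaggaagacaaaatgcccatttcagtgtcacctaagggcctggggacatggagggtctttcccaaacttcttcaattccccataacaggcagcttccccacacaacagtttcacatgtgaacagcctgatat
Cd5l, chr3:87357631-87357930, plus strand: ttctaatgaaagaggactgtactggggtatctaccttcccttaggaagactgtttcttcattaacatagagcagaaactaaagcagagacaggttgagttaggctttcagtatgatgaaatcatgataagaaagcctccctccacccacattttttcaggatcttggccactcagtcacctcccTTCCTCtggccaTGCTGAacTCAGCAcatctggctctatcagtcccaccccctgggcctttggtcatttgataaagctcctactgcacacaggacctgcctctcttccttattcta
Cd36, chr5:17835847-17836146, minus strand: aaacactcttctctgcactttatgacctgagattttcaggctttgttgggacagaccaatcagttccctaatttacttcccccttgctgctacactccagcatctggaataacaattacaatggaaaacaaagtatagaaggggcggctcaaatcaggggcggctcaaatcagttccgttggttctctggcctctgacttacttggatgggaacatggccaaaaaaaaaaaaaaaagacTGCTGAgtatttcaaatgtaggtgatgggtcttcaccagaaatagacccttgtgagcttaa

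The Marco promoter held 1 match to GAGGAA and none to TGCTGA, the Cd5l promoter 1 and 2, and the Cd36 promoter none and 1. In the Cd5l promoter the MAF elements lie side by side on opposite strands, TGCTGA followed by TCAGCA as printed. Among the other members with a promoter, Mrc1 held 3 matches to GAGGAA, Stab1 1 to each motif, and Cd163 and Lrp1 none to either. Of all 32851 promoters of this length, 28.3% held GAGGAA and 19.5% held TGCTGA, so neither is rare. The element AGGTCA of nuclear receptors, found in 16.3% of all promoters, matched Cd36 alone among the members, and the antioxidant response core TGACNNNGC, found in 12.4%, matched Lrp1 alone.

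RNA released from broken cells reaches every droplet, and a level in macrophages was therefore set against the main B lymphocyte-like cluster (507 and 1734 cells), whose cells should not make most of these receptors. In RPM-like cells of the wild-type-labelled library, all 9 genes were at 2 times this reference or more, as were 20.3% of the 9519 genes measured there. In the SCD-labelled library 8 of 9 were, beside 18.8% of 9431 genes. Stab1 rests here on 1 and 4 UMIs in the reference, with intervals of 1.06 to 242.5 and 1.84 to 20.9 times that reach below 2. The exception was Cd36, at 24.9 CPM in RPM-like cells and 59.6 (53.5 to 66.2) CPM in the reference, 0.417 times as high. Cd36 is also made by B cells of the marginal zone, and T lymphocyte-like cells of the same library had 1 UMI of Cd36, 6.57 (0.166 to 36.6) CPM, against which RPM-like cells stood at 3.78 (0.671 to 150.3) times. Whether Cd36 in these RPM-like cells exceeded free RNA could therefore not be told at this depth.

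Marco remained above the reference in the SCD-labelled library, by 3.65 times, against 5.81 times in the wild-type-labelled library. The free RNA itself differed between the libraries in the same direction: the B lymphocyte-like reference held Marco at 211 (186 to 237) and 25.7 (21.7 to 30.1) CPM and Cd5l at 356 (325 to 390) and 54.5 (48.8 to 60.8) CPM. With the reference subtracted, the log2 ratio of Marco in RPM-like cells was -3.89 and that of Mrc1 0.01. Cd163, Lrp1, Mrc1 and Cd5l stood 19.6, 13.1, 10.5 and 10.2 times above the reference in RPM-like cells of the SCD-labelled library.

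At equal depth the same split was seen cell by cell. RPM-like cells with at least 1000 UMIs, 4061 and 1439 of them, were each thinned to 1000 UMIs. A UMI of Marco was found in 57.3% (55.8 to 58.9%) of these cells in the wild-type-labelled and in 7.02% (5.75 to 8.46%) in the SCD-labelled library. The thinned B lymphocyte-like reference gave 18.9% (15.6 to 22.6%) and 2.45% (1.77 to 3.29%), with median depths before thinning of 2148 and 2895 UMIs beside 2160 and 4116 in RPM-like cells. Without thinning the shares of RPM-like cells were 75.2% and 19.3%, and those of the reference 36.5% and 5.77%. Both macrophage shares were above the share that free RNA gives, and the share in the SCD-labelled library was below that of B lymphocyte-like cells in the other library.

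Cd5l was found in 91.9% (91.0 to 92.7%) of thinned RPM-like cells of the wild-type-labelled library and in 518 of the 1439 (33.5 to 38.5%) of the SCD-labelled library, beside 24.9% and 4.66% in the reference. Cd36 was found in 14.8% (13.7 to 15.9%) and 2.15% (1.47 to 3.04%), where the reference gave 5.18% and 3.84%, so that its share in the SCD-labelled library was below that of the reference. Cd163 went from 11.4% (10.5 to 12.4%) to 20.7% (18.6 to 22.9%), beside 0.996% and 1.75% in the reference. Scarb1 went from 6.55% (5.81 to 7.36%) to 11.8% (10.2 to 13.6%), beside 0.797% and 1.16%. These receptors thus showed the order opposite to that of Marco. Mrc1 was found in 84.5% (83.4 to 85.6%) and 83.3% (81.2 to 85.1%) and Lrp1 in 41.3% (39.8 to 42.9%) and 41.1% (38.6 to 43.7%) of cells, where the reference gave 19.3% and 16.1% for Mrc1 and 6.77% and 3.38% for Lrp1. For Lrp1 and Mrc1 the intervals of the libraries overlapped. Msr1 was found in 2.14% and 0.903% of cells and Stab1 in 0.468% and 0.486%.

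**Figure D2:**
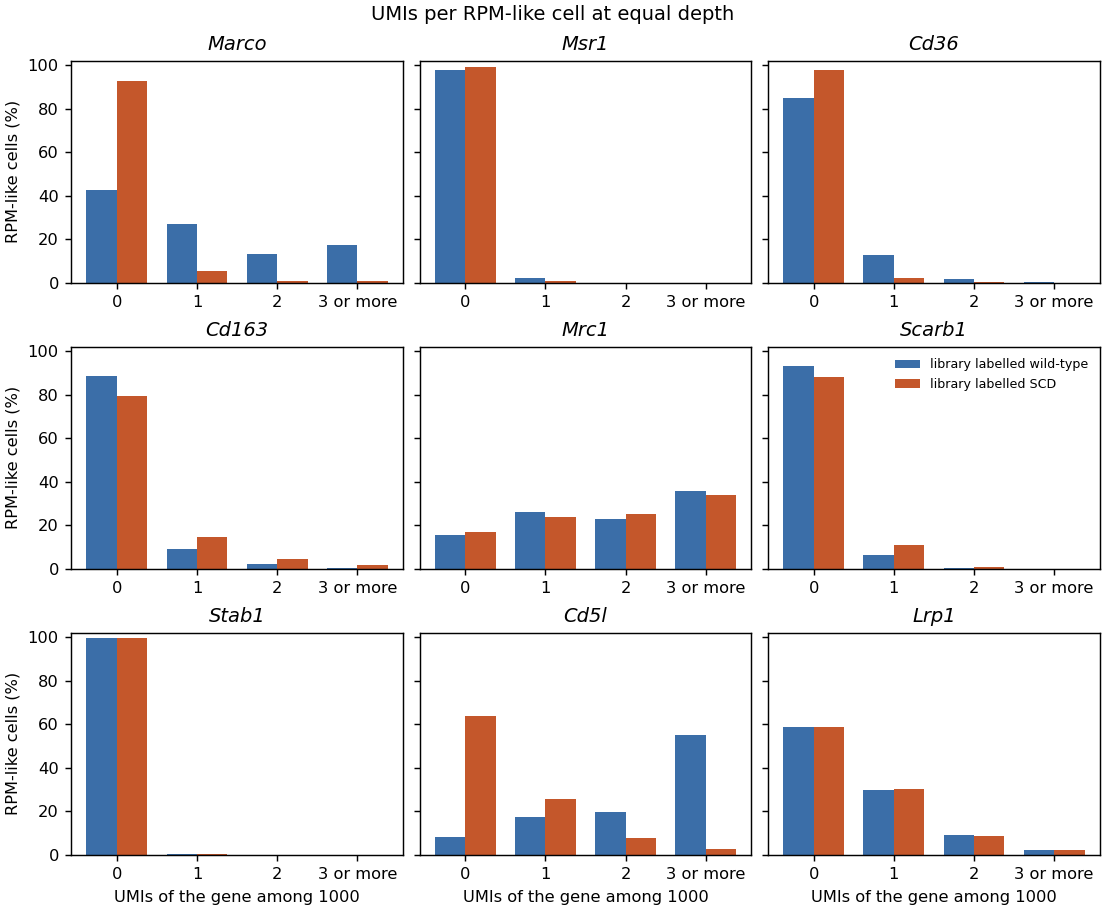
Share of RPM-like cells (vertical axis, percent) with 0, 1, 2 or 3 and more UMIs of each gene (horizontal axis) after every cell was thinned to 1000 UMIs, with 4061 cells of the wild-type-labelled and 1439 of the SCD-labelled library. The bars for Mrc1 and Lrp1 nearly coincide, while 0 UMIs is the state of 93.0% of cells for Marco and 64.0% for Cd5l in the SCD-labelled library.

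Marco was spread unevenly over macrophages. In the wild-type-labelled library, 42.7% of thinned RPM-like cells had no UMI of it while 17.3% had 3 or more, and a single cell reached 40 of its 1000 UMIs. The variance of its UMIs over cells was 2.77 times the mean, where equal cells would give 1, and it was 1.30 for Mrc1 and 1.48 for Cd5l. In the SCD-labelled library this ratio for Marco was 3.17, and 11 of 1439 cells (0.764%) had 3 or more UMIs, none of them with a barcode found in both libraries and none marked as a doublet. In these 11 cells Cd5l was at 364 (99.1 to 931) CPM and Mrc1 at 1091 (564 to 1906) CPM, from 4 and 12 UMIs. The 702 such cells of the wild-type-labelled library had Cd5l at 3719 and Mrc1 at 2105 CPM, so both genes were lower in the few cells of the SCD-labelled library.

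Co-detection asked whether the receptors were found in the same RPM-like cells. For each of the 36 pairs, the share of thinned cells with both genes was set against the product of their single shares. Over the 29 pairs with at least 10 cells expected in the wild-type-labelled library the median of this ratio was 1.0, from 0.622 (Msr1 and Cd36, 8 cells) to 1.23 (Scarb1 and Lrp1, 135 cells). In the SCD-labelled library, 19 pairs reached that number, with a median of 1.01 and a range from 0.765 (Marco and Cd163, 16 cells) to 1.18 (Cd36 and Lrp1, 15 cells). Marco and Cd5l were found together in 53.0% of cells where 52.7% were expected, a ratio of 1.01, in the wild-type-labelled library and in 2.02% where 2.53% were expected, a ratio of 0.798, in the SCD-labelled library (interval 0.536 to 1.14, from 29 cells), where other ways of processing gave ratios from 0.778 to 1.14. With Cd5l in nearly every cell of the wild-type-labelled library, the ratio could not exceed 1.09 there. Marco and Cd36 were found together in 379 cells of that library, 9.33% where 8.47% were expected, a ratio of 1.10 (0.998 to 1.21). In the SCD-labelled library only 4 cells had both. The intervals of these ratios cover counting error of the joint share only, with the expected share held fixed. That share comes from the same cells, so the intervals cannot decide whether the genes of a pair were found independently.

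The number of members found per cell differed by about 1. A thinned RPM-like cell held a UMI of a median of 3 of the 9 genes (mean 3.1) in the wild-type-labelled and of 2 (mean 2.03) in the SCD-labelled library. Without Marco the median was 2 in both, with means of 2.53 and 1.96. The reference gave medians of 1 and 0 of the 9.

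Within clusters, cells with and without a UMI of Marco were compared to see which receptors kept company with it. In cluster 10 of the wild-type-labelled library, 1807 thinned cells with Marco had Cd36 at 200 CPM and 1162 without had it at 153 CPM. Cd36 was higher beside Marco in all 6 clusters that held most macrophages of this library, and so was Cd5l, for example at 3343 against 2905 CPM in cluster 10. Mrc1 and Lrp1 went both ways. Mrc1 was lower beside Marco in clusters 1 and 10 (2079 against 2185 CPM in cluster 10) and higher in clusters 5, 6, 8 and 12 (1188 against 974 CPM in cluster 5), and Lrp1 was higher in clusters 1, 5 and 12 and lower in clusters 6, 8 and 10. In cluster 23 of the SCD-labelled library, the 101 cells with Marco had Cd5l at 406 CPM and the 1320 without at 517 CPM, the other order. Cd36 was at 39.6 and 22.0 CPM in that cluster, and at 28.6 CPM in the 35 cells with Marco and 120 CPM in the 598 without in cluster 24. In cluster 5 every other member was higher beside Marco, and the share of all genes higher beside Marco was not computed for any cluster. No interval was computed for these differences within clusters, which are a description.

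The clusters that hold most macrophages differ between the libraries, so the genes were also compared inside each of the 8 macrophage clusters. Marco and Cd5l were lower in the SCD-labelled library in 8 of 8 clusters, with intervals below 0 in all 8, and with log2 ratios from -4.48 to -1.93 for Marco and from -3.77 to -1.39 for Cd5l. The median ratio over all genes within these clusters ran from -0.37 in cluster 8 to 0.62 in cluster 1. The share of all genes with a ratio of -1 or less was 26.6% and 5.36% in these 2. The medians were 0.57 in cluster 10 and -0.17 in cluster 23. For these medians and shares a count of 0 was set at 3 UMIs. This lifts the library with few UMIs, such as the SCD-labelled library in cluster 1 with 34899. The medians and shares are thus no measure of a shift of all genes. In cluster 10, 12495 UMIs of Marco in 3630 cells (1464 CPM) stood beside 11 UMIs in 24 cells (238 CPM), a log2 ratio of -2.62 (-3.62 to -1.78). In cluster 23, where the SCD-labelled library had 1548 cells, it was at 92.0 CPM, and the 34 cells of the other library in that cluster had it at 639 CPM (log2 ratio -2.79, interval -3.31 to -2.23). Cd36 went both ways, with intervals below 0 in 3 clusters and above 0 in 2, Mrc1 likewise with 6 below and 2 above, and Cd163 with 1 below and 3 above. Lrp1 was lower in 7 of the 8 clusters, with intervals below 0 in 5 and above 0 in none. Its log2 ratios ran from -1.64 to 0.15. Among the receptors, only Marco and Cd5l had ratios below 0, with intervals that left out 0, in every macrophage cluster. Each of these comparisons rests on only 8 to 84 cells of the library that had fewer. Barcodes found in both libraries belonged to 20 and 14 RPM-like cells and to 20 and 5 EBI-like cells. Their part in the comparisons within clusters was not tested. The share of all genes lower in every macrophage cluster was not computed. Whether the pattern was particular to Marco and Cd5l was therefore not tested.

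**Figure D3:**
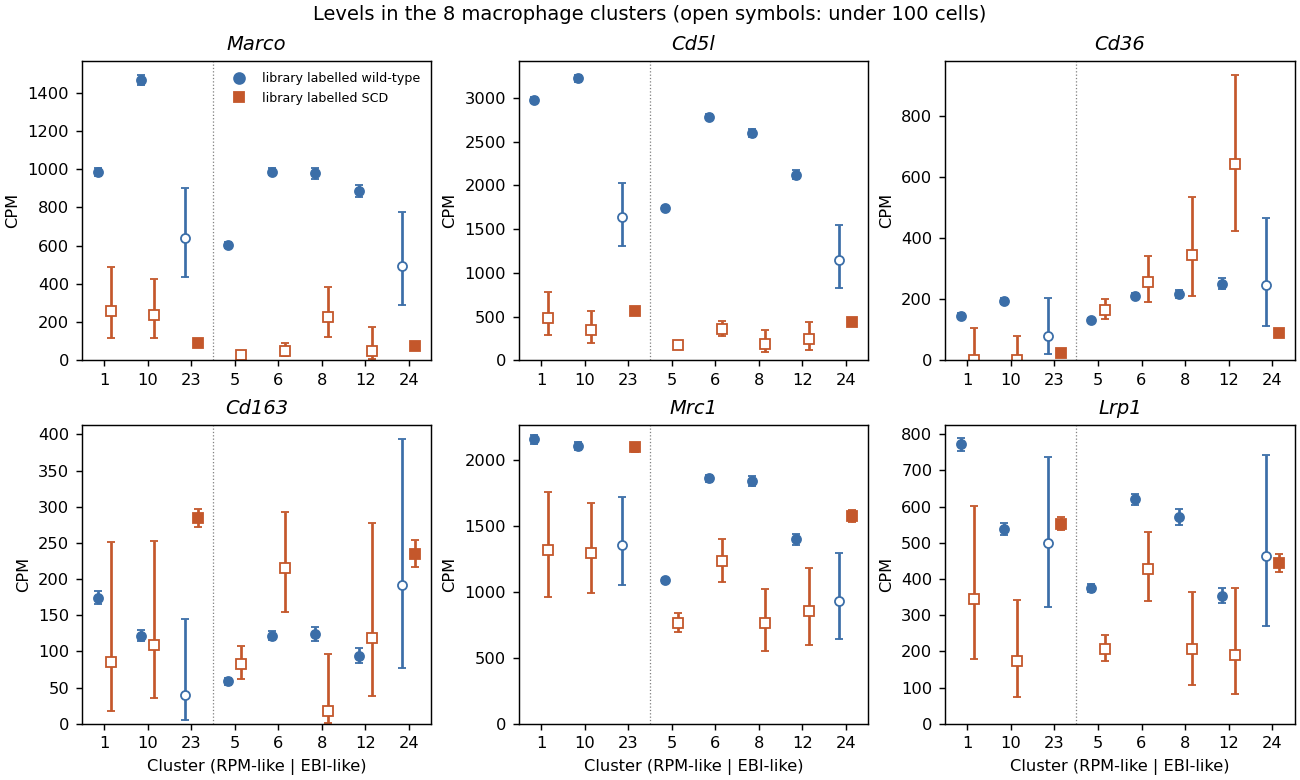
CPM (vertical axes) of 6 of the genes in the 8 macrophage clusters (horizontal axis), RPM-like clusters to the left of the dotted line and EBI-like clusters to the right, with 95% Poisson intervals for counting error. Open symbols mark clusters with under 100 cells of that library. Marco and Cd5l of the SCD-labelled library lie below those of the other library in every cluster, and Cd36, Cd163 and Mrc1 change order between clusters.

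Outside the macrophages the receptors followed other orders. Among named classes, Msr1 was highest in Ly6c-high monocyte-like cells (1049 and 902 cells), at 142 (133 to 151) and 204 (193 to 217) CPM (log2 ratio 0.53, interval 0.41 to 0.65), the opposite sign to RPM-like cells. Ly6c-low monocyte-like cells (431 and 974 cells) came next, at 49.4 (39.9 to 60.4) and 33.0 (27.7 to 39.0) CPM. In the SCD-labelled library they did not differ beyond counting error from erythroid-like cells, at 31.3 (26.8 to 36.4) CPM. Of the 171 UMIs of Msr1 in those erythroid-like cells, 169 lay in cluster 2, and clusters 7 and 13 held 2 and 0. The leading genes of cluster 2 were globins together with S1pr5 and Ly6i, which also led the Ly6c-low monocyte-like cluster. The levels of Msr1 in both macrophage classes thus lay below those in monocyte-like cells.

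Cd36 was highest in Ly6c-low monocyte-like cells, the patrolling monocytes, where it was at 562 (529 to 597) and 559 (537 to 582) CPM. The log2 ratio there was -0.01 (-0.11 to 0.10). In Ly6c-high monocyte-like cells Cd36 was at 58.3 (52.8 to 64.2) and 60.4 (54.1 to 67.3) CPM, again with overlapping intervals. Against the B lymphocyte-like reference, Cd36 stood at 8.47 (6.81 to 10.7) and 9.38 (8.39 to 10.5) times in Ly6c-low cells. In Ly6c-high cells it stood at 0.878 (0.696 to 1.12) and 1.01 (0.869 to 1.18) times. The low level of Cd36 in RPM-like cells was thus not seen in Ly6c-low monocyte-like cells. For Ly6c-high cells the comparison cannot decide, since Cd36 did not exceed the reference there. In DC-like cells it was at 62.6 and 15.6 CPM. These were 0.943 (0.733 to 1.22) and 0.262 (0.202 to 0.338) times the reference, so Cd36 did not exceed the reference there. B cells of the marginal zone make Cd36 too, which can raise this reference. T lymphocyte-like cells had 4 and 1 UMIs of Cd36. The DC-like levels were 2.55 (0.982 to 9.44) and 2.38 (0.414 to 95.2) times theirs. Whether Cd36 exceeded free RNA in DC-like cells could therefore not be told. Marco, Cd5l, Mrc1 and Lrp1 were also lower in DC-like cells (-4.64, -3.65, -1.32 and -1.22), beside 3.45% of all genes. Cd163 and Scarb1 were not, and Msr1 and Stab1 had under 100 UMIs. In DC-like cells of the wild-type-labelled library Marco, Cd5l, Mrc1 and Lrp1 stood at 1.71, 2.62, 2.68 and 2.52 times the B lymphocyte-like reference. In the SCD-labelled library they stood at 0.561, 1.36, 1.35 and 1.93 times, all under 2. The part of free RNA in these ratios was not tested.

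Scarb1 was at its highest in the monocyte-like classes, with 105 (97.3 to 112) and 165 (155 to 177) CPM in Ly6c-high and 124 (109 to 141) and 145 (134 to 157) CPM in Ly6c-low cells, with overlapping intervals between these classes in either library. Lrp1 did not separate macrophages from monocytes either. It was at 464 (448 to 480) and 442 (425 to 460) CPM in Ly6c-high and at 588 (554 to 624) and 522 (500 to 544) CPM in Ly6c-low monocyte-like cells, next to 654 and 549 CPM in RPM-like cells.

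Cd163, Mrc1, Cd5l and Marco were highest in RPM-like cells of both libraries and second highest in EBI-like cells, where the interval of Marco in the SCD-labelled library overlapped that of Ly6c-low monocyte-like cells at 57.3 (50.3 to 65.1) CPM. In Ly6c-high monocyte-like cells of the SCD-labelled library the 4 genes were at 16.5, 148, 38.6 and 16.1 CPM, and the reference held 14.4, 199, 54.5 and 25.7 CPM, so that none of the 4 was 2 times the reference there. In the wild-type-labelled library the same cells carried 39.4, 579, 883 and 356 CPM, above the reference of 12.2, 251, 356 and 211 CPM. Cd163, Mrc1 and Cd5l were at 2 times the reference or more there, and Marco was not, at 1.69 (1.49 to 1.92) times. Free RNA, engulfed debris and doublets with macrophages cannot be told apart in these values.

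**Figure D4:**
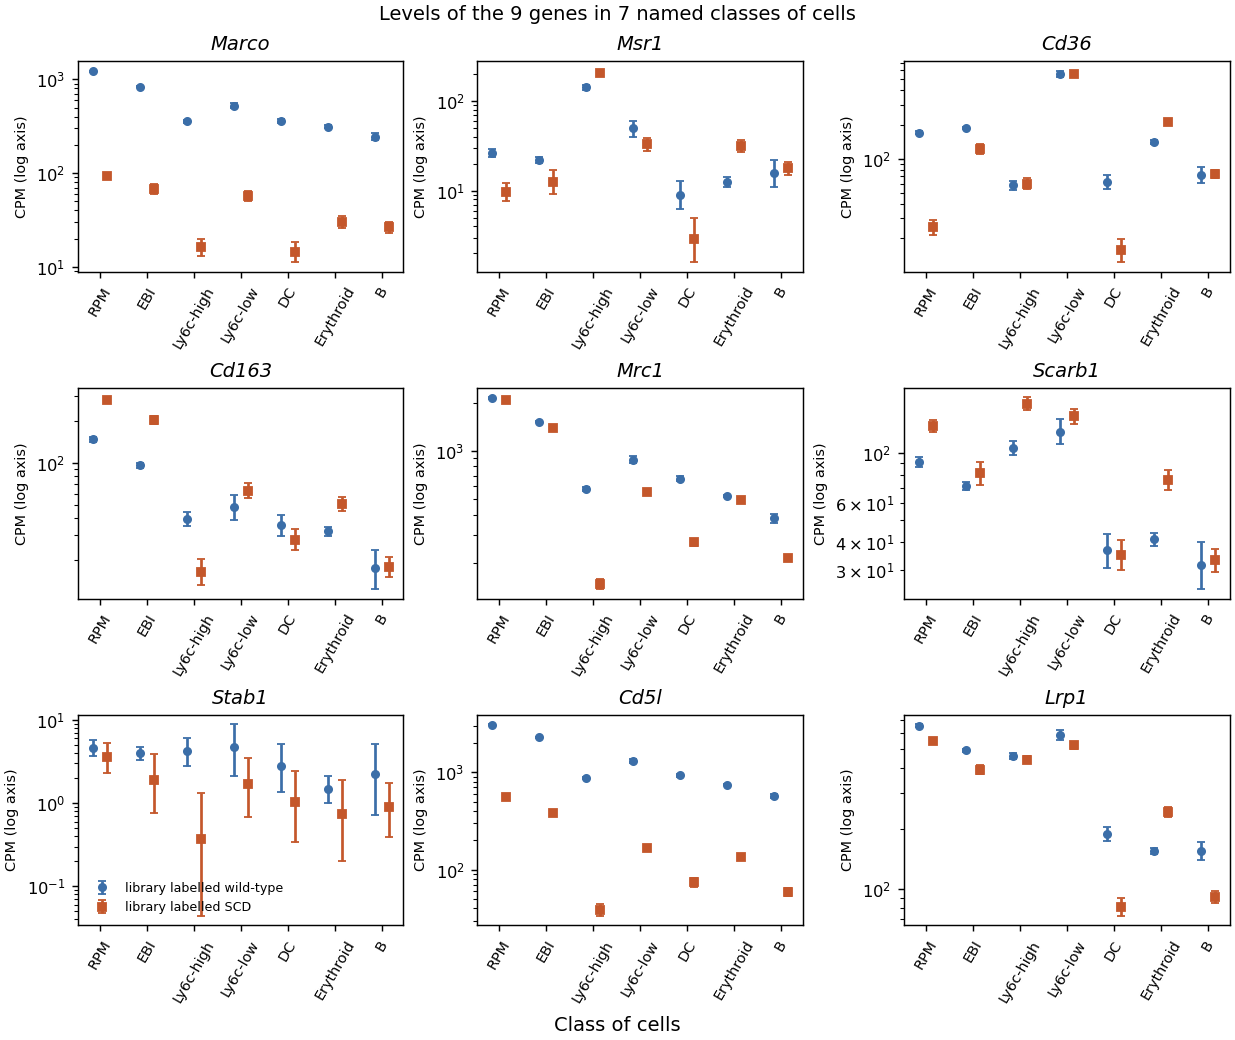
CPM on a log axis (vertical) of each of the 9 genes in 7 classes of cells (horizontal axis: RPM-like, EBI-like, Ly6c-high and Ly6c-low monocyte-like, DC-like, erythroid-like and B lymphocyte-like), with 95% Poisson intervals for counting error. Marco and Cd5l of the SCD-labelled library lie below the other library in all 7 classes, whereas Cd36 nearly coincides in both kinds of monocyte-like cells.

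The genes with the pattern most like Marco were sought over 15 points, each a named class of at least 100 cells in 1 library, by Pearson correlation of log2(CPM + 1) among 11272 genes. They were Fstl3 (Pearson r = 0.99), Chp2 (0.98), Syndig1l (0.97), Me1 (0.97) and Cd5l (0.97). In RPM-like cells Fstl3, which encodes a secreted activin-binding protein, was at 78.0 and 3.16 CPM (log2 ratio -4.62), and Me1, the cytosolic malic enzyme, at 51.5 and 2.89 CPM (log2 ratio -4.16). Nearest to Cd5l were Gas6 (Pearson r = 0.99), Ctsd (0.99), Pdgfc (0.98), Wwp1 (0.98) and Hey1 (0.98). Gas6, the bridge between dying cells and the Axl and Mertk receptors, was at 196 and 39.0 CPM (log2 ratio -2.33), and Ctsd, a lysosomal protease, at 5815 and 1924 CPM (log2 ratio -1.60). Among the members, Stab1 correlated with Marco at 0.76, Mrc1 at 0.63 and Lrp1, Cd36 and Cd163 at 0.37, 0.33 and 0.28, with Msr1 and Scarb1 near 0. The points share 2 libraries and their free RNA, and the values are a description.

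Of 20 genes that neighbour Marco on chromosome 1, 10 were in the matrices and 4 had at least 100 UMIs in RPM-like cells. Steap3, an iron reductase gene that lies closest to Marco among them, had 255 and 49 UMIs, a log2 ratio of -1.15 (-1.62 to -0.70). Dbi and Tmem37 had ratios of -0.32 (-0.44 to -0.19) and -0.26 (-0.50 to -0.03), and Tmem177 had a ratio of 0.59 (0.10 to 1.06). Steap3 alone of these 4 reached the limit, no longer so without cluster 1, and none of the 4 approached the ratio of Marco.

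The wider family showed the same mixture. Of 22 other scavenger receptor genes, 10 had at least 100 UMIs in RPM-like cells, 2 were lower and 1 was higher, with a median ratio of -0.16. Of all 9979 genes tested there, 4.37% were lower and 9.11% were higher. Colec12, a collagen-like relative of Marco and Msr1, was at 14.1 and 2.34 CPM (log2 ratio -2.59, interval -3.39 to -1.88), and Lrp12 had a ratio of -1.25 (-1.45 to -1.05). Cd44, the hyaluronan receptor, was higher at 1.15 (1.09 to 1.21), and Cd68, the lysosomal class D receptor, had a ratio of -0.87 (-0.94 to -0.80). In EBI-like cells 3 of 10 were lower and 1 was higher, beside 6.88% and 4.40% of all genes tested there.

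Among 14 genes for uptake partners and ligands, 9 were measured in RPM-like cells, 2 were lower and none was higher, with a median of -0.43. The shares over all genes there were 4.37% and 9.11%. The lower genes were Pdzk1 and Ap2a1, a subunit of the clathrin adaptor, at -1.04 (-1.38 to -0.72). Apoe, a ligand of Lrp1 and of the lipoprotein receptors, went from 2823 to 1503 CPM (log2 ratio -0.91, interval -0.94 to -0.88), clathrin heavy chain (Cltc) had a ratio of -0.58 (-0.63 to -0.54), and Dab2, an adaptor for the uptake of lipoprotein receptors, of 0.56 (0.08 to 1.02). In EBI-like cells 4 of 10 were lower and none was higher, beside 6.88% and 4.40% of all genes.

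None of 13 transcription factors tied to these receptors was lower or higher in RPM-like cells, where 4.37% and 9.11% of all genes were. Their median ratio was 0.04. Spic, which red pulp macrophages need, was at 1026.5 and 1688 CPM (log2 ratio 0.72, interval 0.68 to 0.75). Pparg, which controls Cd36, had a ratio of -0.46 (-0.56 to -0.35), Spi1, the gene of PU.1, -0.45 (-0.54 to -0.35), Nr1h3, the gene of LXRα, which controls Cd5l, 0.41 (0.36 to 0.47), and Stat6 0.36 (0.22 to 0.50). In EBI-like cells also none of the 13 passed the limit in either direction, beside 6.88% and 4.40% of all genes.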

How the data were processed

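The 2 libraries were made from spleen cells enriched with anti-F4/80 beads, 1 mouse each, with a droplet kit that reads the 3′ end of transcripts. Per the labels, the authors aligned reads to GRCm38.p6 and made counts of UMIs per gene and barcode with Cell Ranger 4.0.0, whereas the file headers name version 3.1.0. The deposited values are these raw counts, with 26124 genes, no normalization and no columns of comparisons.

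Following the study's methods, a barcode was kept if it had 500 to 5000 genes and if mitochondrial UMIs made up less than 15% and ribosomal-protein UMIs less than 30% of its total. Genes had to occur in at least 20 cells. Size factors came from scran 1.30.0 (R 4.3.3). In scanpy 1.11.5 (Python 3.11.15, igraph 0.11.9), both libraries were clustered together on 2000 variable genes, without the 9 members, the lists named in the report, genes of heme and iron handling, hemoglobin and sex-linked genes, with 30 components, 15 neighbours and Leiden resolution 1. Clusters were named from marker lists. A macrophage cluster had its markers at 4 times the main B lymphocyte-like cluster or more, and an EBI-like one also erythroid markers at 2 times or more. A cluster stayed unnamed if its 10 leading genes held fewer of its own markers than of a different class, which kept out clusters 14 (975 and 459 cells) and 19 (515 and 301 cells), whose macrophage markers were 4.58 and 4.95 times the reference. These limits, and a rule that left cluster 3 (777 and 49 cells) without a name, were set after the clusters were seen. Scrublet's automatic threshold marked 0 and 1729 cells as doublets, so they were kept, and an alternative left out 2061 and 1729.

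UMIs were summed per class and library and divided by the class total. Levels have exact Poisson, ratios exact conditional binomial and shares exact binomial (Clopper-Pearson) intervals, all for counting error only. The number of mice per label, 1, allows no test. On simulated counts for 9979 genes of the RPM-like comparison, 200 of them changed, 100% of directions were found again and the true ratio lay inside 96.0% of intervals. These counts were drawn from a Poisson model, which the intervals also assume. The simulation thus checks the computation only, not counts that vary more between cells, as those of Marco did. Genes at the 3′ end are counted without regard to length, so levels are compared within a gene. Gene positions come from the GENCODE annotation of GRCm38, in which 26013 of 26124 identifiers were found.

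The text names the 9 members, up to 5 genes of each list with the largest absolute ratio in RPM-like cells (1 of these is not reported here), the 5 genes most like Marco and the 5 most like Cd5l, the neighbours of Marco with 100 UMIs, and the markers. Members, lists and limits were chosen with earlier results of these data known.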

Additional observations from a re-analysis of the deposited data

Results flagged for a closer look

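Msr1, the class A receptor, had ratios of opposite sign in RPM-like cells and in erythroid-like and Ly6c-high monocyte-like cells. Other classes had the sign of RPM-like cells: the log2 ratio was -0.58 (-0.97 to -0.19) in Ly6c-low monocyte-like cells. It was -1.63 (-2.65 to -0.68) in DC-like cells, from 32 and 14 UMIs. In erythroid-like cells the log2 ratio of Msr1 was 1.32 (1.03 to 1.61) and in Ly6c-high monocyte-like cells it was 0.53 (0.41 to 0.65), whereas in RPM-like cells it was -1.43. The erythroid-like value came with a different mix of clusters in the libraries. Cluster 2, with 363 and 488 cells, held 142 and 169 of the 243 and 171 UMIs, and within it the ratio was -0.47 (-0.80 to -0.14), the opposite sign to the class.

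Cd36 had a log2 ratio of 0.58 (0.48 to 0.68) in erythroid-like cells and of -2.77 in RPM-like cells. Its ratios within the erythroid-like clusters 2, 7 and 13 were -0.13 (-0.32 to 0.05), 0.78 (0.54 to 1.01) and 1.20 (1.03 to 1.37), and in cluster 13 it was at 373 and 859 CPM.

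Cd163 had a log2 ratio of -1.26 (-1.62 to -0.91) in Ly6c-high monocyte-like cells and of 0.94 in RPM-like cells, and its level in these monocyte-like cells of the SCD-labelled library, 16.5 CPM, was close to the 14.4 CPM of the B lymphocyte-like reference. These 4 contrasts drew attention because the classes moved in opposite directions between the same libraries. With 1 mouse per label the differences between classes were not tested.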

How the results depend on the processing

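No paired analysis was possible because each label had 1 mouse, and for the same reason no library could be left out. The count of lower members stayed between 3 and 4 in RPM-like cells, 2 and 5 in EBI-like cells (5 with a limit of -0.5) and 3 and 4 over all kept cells. Marco was lower under every alternative run in RPM-like cells, with log2 ratios of -3.49 with all variable genes, -3.84 with each library clustered on its own, -3.90 centred on the median gene, -3.26 as a mean over cells, -3.89 with the reference subtracted and -3.97 without cluster 1, which is led by non-coding transcripts. In EBI-like cells it was -3.79 with a filter of 200 genes, -4.11 at resolution 0.5, -4.08 with all variable genes and -3.86 with the reference subtracted, and over all kept cells -3.95 with the 200-gene filter, -4.25 centred, -3.94 as a mean over cells and -5.10 with the reference subtracted. The median ratio of the 9 members was -0.15 and that of the other 8 was -0.12 with all variable genes, and both were -0.0083 without cluster 1. The share of RPM-like cells with Marco in the wild-type-labelled library was 52.9% at resolution 2, 53.6% with all variable genes, 51.8% with the gate, 73.2% at 2000 UMIs, 75.2% without thinning and 60.7% without cluster 1, and in the SCD-labelled library 10.4% at 2000 UMIs and 19.3% without thinning. The co-detection ratio of Marco and Cd5l in the wild-type-labelled library was 1.04 at resolution 2. Without cluster 1, 0 neighbours of Marco were lower, and Spearman's rho shared 2 of the 5 genes most like Marco. Msr1 turned to 0.11 with each library clustered on its own. Causes of these shifts were not tested. The alternatives without cluster 1 and without shared barcodes were chosen after seeing the data.

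Limits. A single mouse per label, globins that go against the labels, macrophage classes held by different clusters in the libraries, and free RNA that carries Marco and Cd5l cannot be told apart from a difference between genotypes. Stab1 and, in RPM-like cells of the SCD-labelled library, Msr1 rest on under 100 UMIs. With the reference subtracted, Cd36 in RPM-like cells gave no value, since its level in the SCD-labelled library lay below the reference.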
